A study of Mus musculus with 4 samples.

Results

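The 9 genes described here belong to the pericellular matrix and were followed across every cell of the series: 7 secreted ADAMTS proteases (Adamts4, Adamts5, Adamts1, Adamts9, Adamts15, Adamts2 and Adamts12) and the large proteoglycans Acan and Vcan. They were taken by gene symbol from the 32285 genes counted, and all 9 were found. ADAMTS enzymes are zinc proteases that carry thrombospondin repeats and are anchored in the matrix outside the cell. Several of them, the aggrecanases and versicanases, cut aggrecan and versican, the proteoglycans that fill cartilage and loose connective tissue together with hyaluronan. Aggrecan loss is an early step of cartilage damage in arthritis, and versican is made during wound repair, vessel growth and by monocytes in inflamed lung.

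Single cells from the synovium and the lung were sequenced for TNF+ mice, which carry a transgene that overexpresses 1 copy of human TNF (hTNFtg), and for their TNF negative littermates (TNF-). All were 4 months old, female and on a C57BL/6 background, and no deletion was carried by any of the groups used here. Tissue of 5 to 10 mice (synovium) or 3 to 5 mice (lung) per genotype was pooled before digestion, viable cells were sorted, and each pool gave 1 library. The 4 groups therefore hold 1 library each. Differences between mice were not measured, no test between groups was possible, and every interval below is a 95% interval for counting error only. The human transgene is absent from the mouse reference, so it was not seen. Mouse Tnf itself had 16.8 and 75.1 CPM in synovium (TNF- first, as in all pairs of values below) and 35.2 and 113 CPM in lung, where CPM is a gene's UMIs for every 1000000 UMIs of the same cells.

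After the cell filter (200 to 5000 genes and at most 20% mitochondrial UMIs), 6200 TNF- and 3152 TNF+ synovial cells and 6998 TNF- and 9174 TNF+ lung cells remained, with 33047125 to 84398714 UMIs per library. Pairs of libraries shared 5 to 21 barcodes, at most 0.304% of the smaller one. Cells were clustered by tissue and named "-like" from marker genes. Of 29 synovial clusters, 11 drew over 90% of their cells from 1 library and 4 stayed unnamed. Of 36 lung clusters, 14 drew over 90% from 1 library and 2 stayed unnamed. All 4 synovial fibroblast-like clusters were of this lopsided kind, so a genotype and a cell state cannot be told apart there. The makeup of the pools also differed. Fibroblast-like cells were 2984 of the TNF- and 382 of the TNF+ synovial cells (48.1% and 12.1%), and macrophage- or monocyte-like cells 222 and 1109. In lung, fibroblast-like cells numbered 460 and 117 and endothelial-like cells 2276 and 398, and the TNF+ ones were shallow, with medians of 1010 and 775.5 UMIs per cell against 5871.5 and 5621 in TNF- lung.

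The filter removed cells that carried much of the signal of these genes. In TNF+ synovium the barcodes left out held 66.1% of Acan UMIs, 57.8% of Adamts15 UMIs and 54.8% of Adamts5 UMIs, against 31.8% of the UMIs of all genes. In TNF+ lung they held 87.9% of Adamts2 UMIs, against 45.9% for all genes. Most of the Acan UMIs left out lay in fibroblast-like cells with more than 5000 genes. Clustered without a filter, 153 of 505 TNF+ synovial fibroblast-like cells were ones the filter had dropped, 151 of them for more than 5000 genes, and they held 502 Acan UMIs. Values without the filter are therefore given in all cells and in the main cell types where the direction or the 2-fold call was different without it, or the ratio moved most.

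The catalytic zinc site is the stretch that makes these proteins proteases, and its coding sequence is shown for the 7 enzymes because it is what they share and where they part. Each is the 33-base coding stretch read 5′ to 3′ on the gene's own strand (GRCm38), with the codons of the 3 zinc-binding histidines, the catalytic glutamate and residue 8 of the site in capitals. Every one of them crosses an exon junction, so the coordinates include the intron between the exons.
Adamts4: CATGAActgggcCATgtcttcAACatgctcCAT
Adamts5: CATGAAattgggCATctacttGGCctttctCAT
Adamts1: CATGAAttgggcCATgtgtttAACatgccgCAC
Adamts9: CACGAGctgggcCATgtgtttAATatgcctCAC
Adamts15: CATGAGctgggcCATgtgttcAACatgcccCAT
Adamts2: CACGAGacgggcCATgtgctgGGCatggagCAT
Adamts12: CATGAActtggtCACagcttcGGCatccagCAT

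Residue 8 split the enzymes into 2 groups. Adamts4, Adamts1, Adamts9 and Adamts15 encode asparagine there, and Adamts5, Adamts2 and Adamts12 encode glycine. Pairs of asparagine enzymes shared 25 to 30 of the 33 bases, led by Adamts4 with Adamts15 at 30. Pairs of glycine enzymes shared only 19 (Adamts2 with Adamts12) or 20 (Adamts5 with Adamts2 and with Adamts12). That lay inside the 17 to 23 shared by pairs with different residues. Adamts1, Adamts9 and Adamts15 each shared 28 with the others of this trio. The Adamts4 site lies at chr1:171253210-171253915 on the plus strand (exons 3 and 4), and the Adamts5 site at chr16:85878015-85887826 on the minus strand (exons 2 and 3). Those of Adamts1 and Adamts9 are at chr16:85799191-85799545 (minus, exons 3 and 4) and chr6:92905285-92908493 (minus, exons 8 and 9). The Adamts15 site is at chr9:30911255-30911690 (minus, exons 2 and 3), that of Adamts2 at chr11:50775403-50776134 (plus, exons 7 and 8) and that of Adamts12 at chr15:11241529-11255564 (plus, exons 7 and 8). Adamts1 (chr16:85793827-85803113) and Adamts5 (chr16:85856173-85901828) are neighbours 53.1 kb apart on the minus strand with 0 protein-coding genes between them. The proteoglycan genes lie at chr7:79053483-79115099 on the plus strand (Acan) and chr13:89655312-89742509 on the minus strand (Vcan). Genes that overlap Adamts4, Adamts9, Adamts2 and Vcan are all on the opposite strand.

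In the unaffected synovium fibroblast-like cells held most UMIs of most members, and also 45970540 of the 76203216 UMIs of all genes. TNF- synovial fibroblast-like cells held 94.1% of all Adamts5 UMIs, 93.1% of Vcan, 89.5% of Adamts2, 89.4% of Adamts12 and 84.6% of Adamts15. Their part was smaller for Adamts1 (69.1%) and Adamts4 (64.5%), where the vessel wall contributed. Mural-like cells, the pericytes and smooth muscle around vessels, held 21.9% of Adamts4. Per UMI they had more than fibroblast-like cells of Adamts4 (542 against 67.9 CPM) and Adamts1 (893 against 365.5 CPM). Adamts9 was spread over endothelial-like (36.3%), fibroblast-like (28.9%) and mural-like (19.4%) cells. Its level was 902 CPM in endothelial-like, 736 CPM in mural-like and 46.4 CPM in fibroblast-like cells. Acan, the cartilage proteoglycan, had 9 UMIs in the whole TNF- synovial library. The T cell-like cells were taken to show the level of free RNA, on the untested assumption that they lack these genes. They had at most 10.8 CPM for any member in TNF- synovium (Adamts5 and Vcan, median depth 10310 UMIs) and 8.19 CPM in TNF+ synovium (Adamts9, median depth 6188 UMIs). Levels near these were read as background for every member, though the T cell-like level differed by gene.

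**Figure D1:**
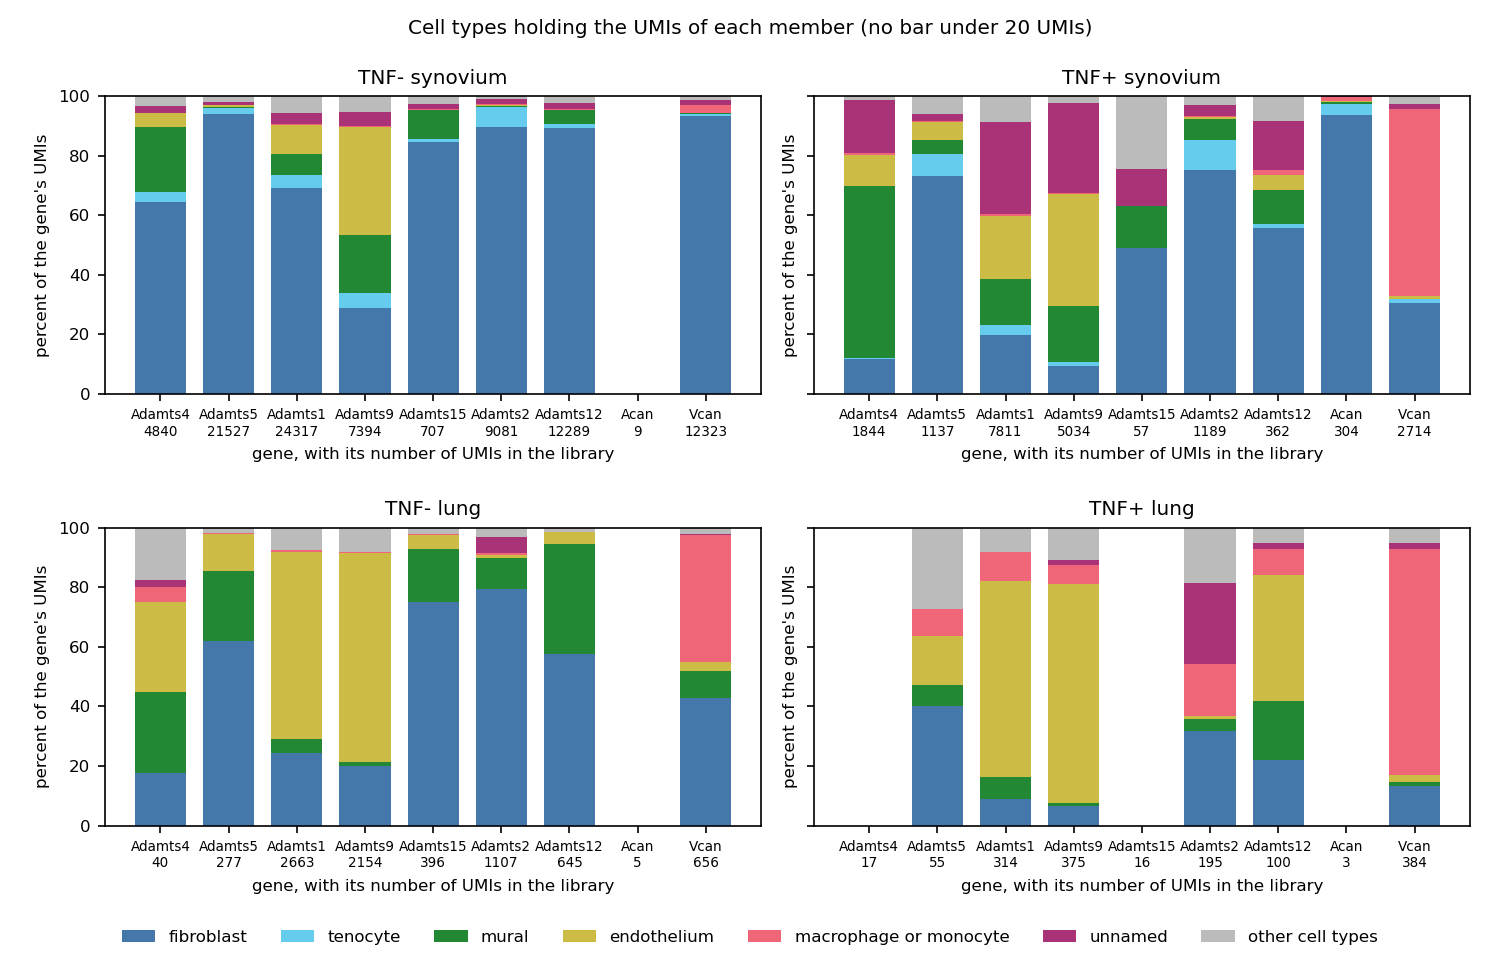
Share of each gene's UMIs (percent) held by each cell type in the 4 libraries, 1 stacked bar per gene and library. Fibroblast-like cells hold 94.1% of Adamts5 UMIs in TNF- synovium and 73.1% in TNF+ synovium, and for Vcan the leading share passes to macrophage- or monocyte-like cells in TNF+ synovium (62.9%).

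In the TNF+ synovium the holders differed. Mural-like cells held 57.9% of Adamts4 UMIs and fibroblast-like cells 11.7%. Macrophage- or monocyte-like cells held 62.9% of Vcan. Fibroblast-like cells still led for Adamts2 (75.3%), Adamts5 (73.1%), Adamts12 (55.5%) and Acan (93.75%), and endothelial-like cells for Adamts9 (37.4%). Adamts1 was spread over unnamed clusters (31.1%), endothelial-like (21.2%), fibroblast-like (19.6%) and mural-like (15.4%) cells. These shares follow the makeup of each pool as well as the RNA per cell, and fewer cells of a type and less RNA per cell cannot be told apart in whole-tissue values.

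Over all synovial cells, Acan was higher in TNF+ (0.118 to 9.20 CPM, 9 and 304 UMIs, log2 ratio 6.28, interval 5.34 to 7.43). Adamts12, a protease known to cut cartilage oligomeric matrix protein, was lower (161 to 10.95 CPM, log2 ratio -3.88, interval -4.03 to -3.73). So was Adamts5, the main aggrecanase of mouse cartilage (282.5 to 34.4 CPM, -3.04, interval -3.12 to -2.95). Adamts15 (-2.43) and the procollagen N-proteinase Adamts2 (-1.73) were lower by 2-fold or more too. The other members were within 2-fold: Vcan at -0.98, Adamts1 at -0.43, Adamts4 at -0.19 and Adamts9 at 0.65. In all, 1 of 9 members was 2-fold or more higher and 4 were 2-fold or more lower, where 11.8% and 21.9% of the 19255 genes with at least 20 UMIs were. The same members passed without the cell filter (where 11.9% and 22.3% of genes did), with Acan at 7.25 (11 and 898 UMIs), Adamts5 at -2.47, Adamts15 at -1.70 and Adamts2 at -1.30.

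Over all lung cells every member that could be compared was lower in TNF+. All 8 members with at least 20 UMIs were lower by 2-fold or more, from -1.42 for Vcan (interval -1.61 to -1.24) to -5.28 for Adamts15 (interval -6.10 to -4.56). Among all genes 25.5% were lower by that much and 5.79% higher. Adamts1, a metalloprotease of endothelium and fibroblasts, went from 49.5 to 3.72 CPM (2663 and 314 UMIs) and Adamts9 from 40.0 to 4.44 CPM (2154 and 375 UMIs). Without the cell filter all 8 were still past 2-fold lower (25.8% of genes, and 5.47% higher) but the ratios were smaller for most: Adamts1 was at 53.1 and 6.85 CPM (-2.96 in place of -3.73), Adamts9 at 41.2 and 9.12 CPM (-2.18 in place of -3.17) and Adamts2 at 36.9 and 10.35 CPM (-1.83 in place of -3.16). Acan had 5 UMIs in TNF- and 3 in TNF+ lung and was not compared. The fibroblast- and endothelial-like cells that hold these genes were 6.57% and 32.5% of TNF- lung cells but 1.28% and 4.34% of TNF+ lung cells.

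**Figure D2:**
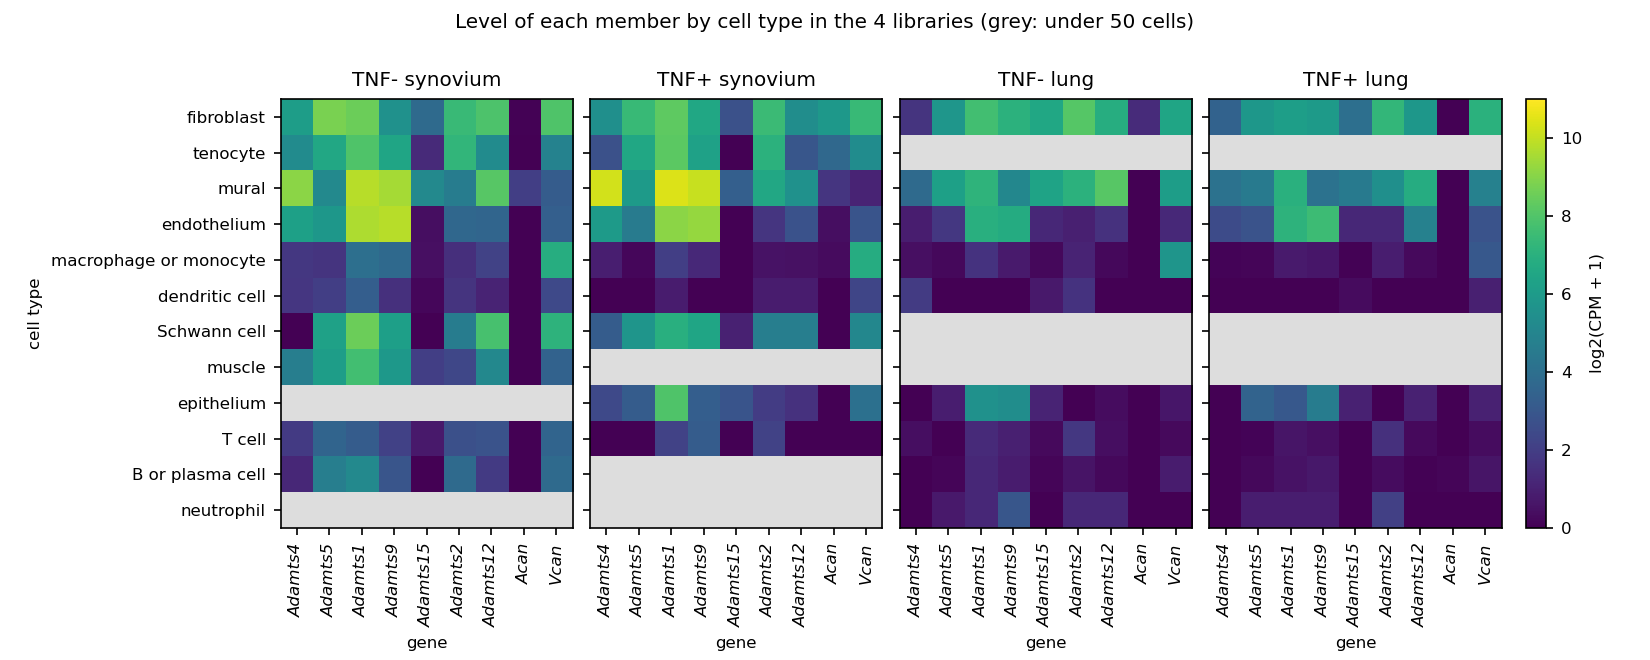
Level of each gene (log2 of CPM + 1) by cell type and library with color for the level and grey for cell types under 50 cells. Adamts4, Adamts1 and Adamts9 are brightest in synovial mural-like cells, at 1221, 1381 and 1094 CPM in TNF+, and Acan passes 10 CPM only in TNF+ synovial fibroblast-like (57.7 CPM) and tenocyte-like (12.3 CPM) cells.

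Within synovial fibroblast-like cells the members split. Adamts12 was lower in TNF+ (239 to 40.7 CPM, 10983 and 201 UMIs, log2 ratio -2.55, interval -2.76 to -2.35). Adamts5 was also lower (440.5 to 168 CPM, 20251 and 831 UMIs, -1.39, interval -1.49 to -1.29). Adamts15, an aggrecanase and versicanase, was lower on far fewer counts (13.01 to 5.67 CPM, 598 and 28 UMIs, -1.20, interval -1.80 to -0.65), and was within 2-fold without the cell filter (-0.54). Each cell thinned to 1000 UMIs gave the same direction for the first pair of genes: 29.4% of TNF- and 13.1% of TNF+ fibroblast-like cells had an Adamts5 UMI, and 19.8% and 5.72% had one of Adamts12. Before thinning these shares were 88.4% and 54.7% for Adamts5 and 76.2% and 28.0% for Adamts12, at median depths of 15616 and 11112 UMIs. Thinning left out 4 TNF- and 15 TNF+ cells. Thinned shares in T cell-like cells were at most 0.79%.

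The inducible aggrecanase Adamts4 was lower within 2-fold (67.9 to 43.75 CPM, -0.64, interval -0.84 to -0.44), and past 2-fold without the filter (-1.08). Vcan (249.7 to 168 CPM, -0.57) and Adamts1 (365.5 to 311 CPM, -0.23, interval -0.31 to -0.16) were lower by less than 2-fold. Adamts2, which trims the amino end of procollagens, differed by no more than its counting interval (177 and 181 CPM, 0.04, interval -0.06 to 0.14). Adamts9, a versicanase, was higher (46.4 to 94.0 CPM, 2134 and 464 UMIs, 1.02, interval 0.87 to 1.16), but was level without the cell filter (48.5 and 51.9 CPM, 0.10, interval -0.04 to 0.23). Of the 9 members, 2 were 2-fold or more higher and 3 lower in fibroblast-like cells, against 8.85% and 23.7% of the genes compared there. Without the filter these were 1 and 3 (Acan higher, and Adamts4, Adamts5 and Adamts12 lower), against 10.9% and 29.3%. The median log2 ratio of all those genes was -0.30.

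**Figure D3:**
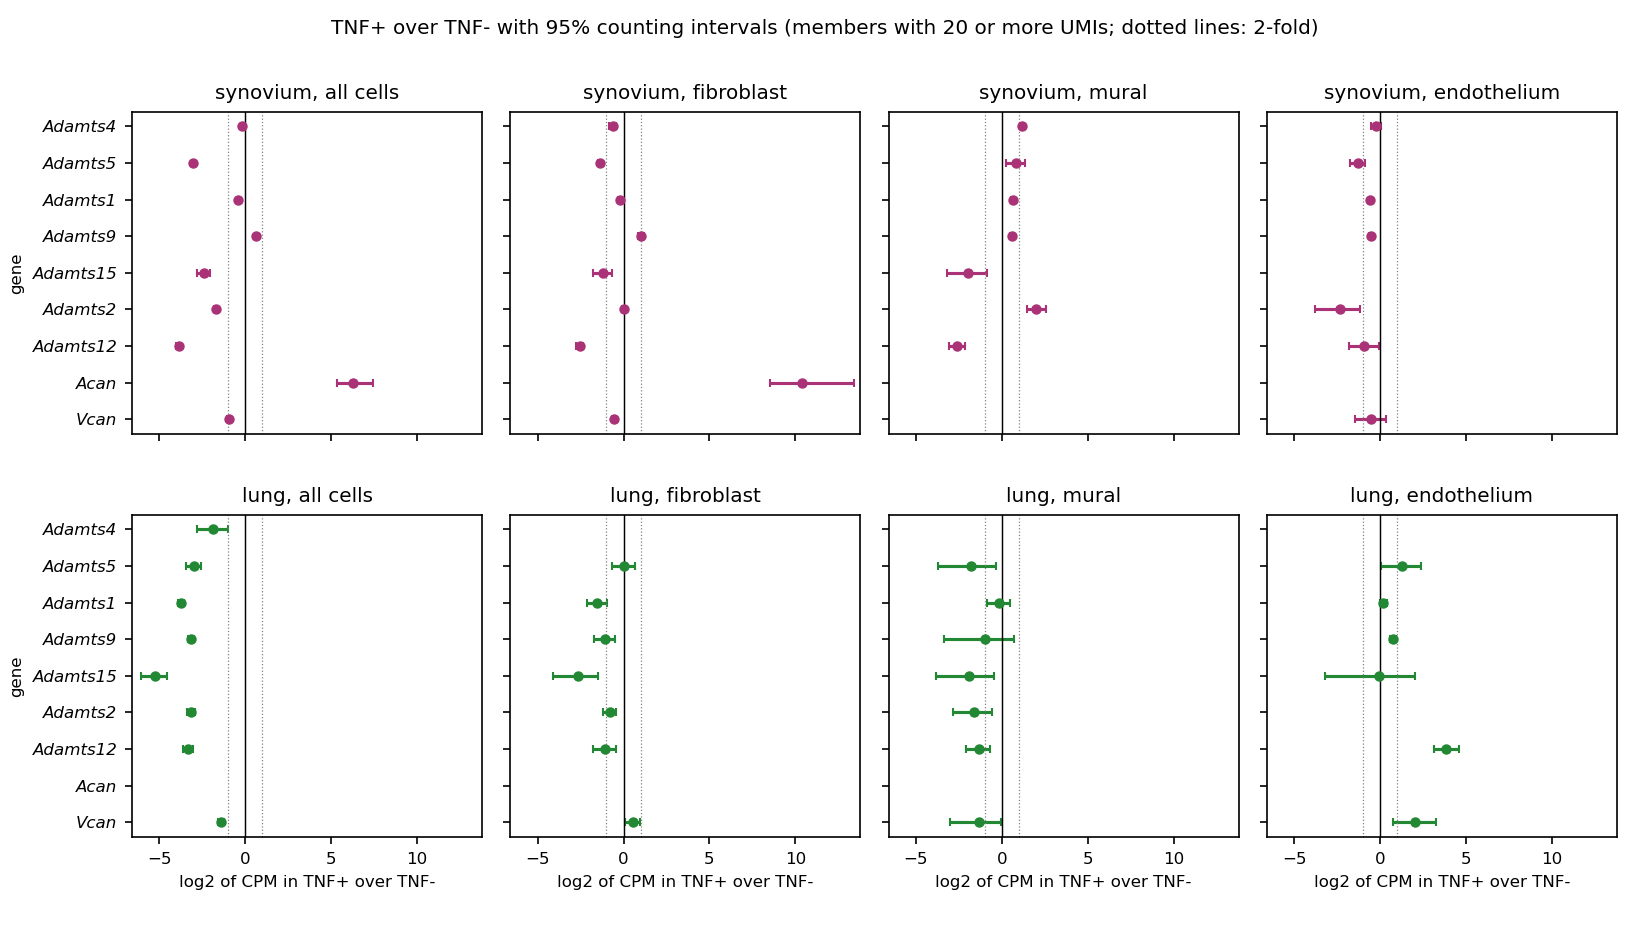
Log2 ratio of TNF+ over TNF- CPM for each gene within a tissue and cell type, with 95% counting intervals, from 1 library per group. In synovial fibroblast-like cells Adamts12 sits at -2.55 and Adamts5 at -1.39 while Adamts9 sits at 1.02, and in synovial mural-like cells Adamts4 sits at 1.17 and Adamts2 at 2.01.

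Acan was the member that set the groups apart most in these cells. It had 2 UMIs in 2984 TNF- fibroblast-like cells and 285 UMIs in 382 TNF+ ones (0.0435 and 57.7 CPM, log2 ratio 10.37, interval 8.51 to 13.43, on 2 counts). All 285 lay in 1 cluster, led by Saa3, Mmp13 and Cxcl5, of which 230 of 232 cells were TNF+. The level of Acan in this cluster was 75.95 CPM (interval 67.4 to 85.3). It was carried by 43 of the 230 cells (18.7%), and 1 cell held 57 of the UMIs. Without the filter the fibroblast-like cells held 737 Acan UMIs in TNF+ and 2 in TNF- (log2 ratio 10.81). Outside fibroblast-like cells, TNF+ tenocyte-like cells had 11 Acan UMIs in 79 cells and TNF- ones 0. Against a floor of 3 UMIs that is a log2 ratio of 4.08, and the lower counting limit was 3.53.

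Markers of skeletal cells stood beside Acan in the same cluster. The 11 osteoblast markers summed to 1848 CPM there, against 39.3 CPM in TNF- and 55.7 CPM in TNF+ cells of the other fibroblast-like clusters, with 2 of 11 at 0. A single gene, Ibsp (bone sialoprotein), gave 1553 of the 1848 CPM, while the osteoblast transcription factor Sp7 was at 4.00 CPM and Phex at 1.07 CPM, below its 10.1 CPM in TNF+ cells of the other clusters. The 16 chondrocyte markers summed to 154 CPM against 71.9 and 58.2 CPM, with 3 at 0. Of this sum Sox9 gave 80.5 CPM, against 55.15 (TNF-) and 37.1 CPM (TNF+) in the other clusters. Col11a2 gave 47.4 CPM, against 1.68 and 4.22 CPM there. Other single markers went either way. Chad was at 10.1 CPM, against 0.631 and 0 CPM. Col9a3 was lower at 1.60 CPM, against 2.72 and 6.75 CPM, as was Cnmd at 0.533 CPM, against 2.025 and 3.375 CPM. Col2a1, the main cartilage collagen, had 4 UMIs. The 9 tenocyte markers summed to 1450 CPM against 99.4 and 106 CPM. The fibroblast list itself summed to 45330 CPM in this cluster, and to 35101 and 31660 CPM in the others. The part of these other cell types in the Acan signal was not tested.

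Fibroblast-like clusters with at least 50 cells of each genotype showed a different picture for Adamts1 than the sum did. They still drew 95.95% (Grm8 cluster) and 92.6% (Gdf10 cluster) of their cells from TNF-. Genotype and cell state therefore cannot be told apart in them either. In the cluster led by Grm8, Cxcl14 and P2ry1 (1375 TNF- and 58 TNF+ cells), Adamts1 was higher in TNF+ (340.0 to 623 CPM, log2 ratio 0.87, interval 0.68 to 1.06). It was also higher in the cluster led by Gdf10, C4b and Mgp (941 and 75 cells), at 383.5 and 596 CPM (0.64, interval 0.48 to 0.79). The Saa3 Mmp13 cluster, with 211 CPM, brought the sum down: without it the Adamts1 ratio over fibroblast-like cells was 0.77 in place of -0.23. Adamts9 was higher in both the Grm8 and the Gdf10 cluster too, at 48.8 and 122 CPM (1.32) and at 55.3 and 111 CPM (1.001).

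The lower values of Adamts12 and Adamts5 were seen inside the Grm8 and Gdf10 clusters as well. For both genes the differences were smaller there than over the sum. Adamts12 was at 277 and 102 CPM in the Grm8 cluster (-1.44, interval -1.93 to -0.996) and at 248.5 and 63.2 CPM in the Gdf10 cluster (-1.97, interval -2.46 to -1.53). Adamts5 was at 396 and 206 CPM (-0.94) and at 274 and 215 CPM (-0.35, interval -0.61 to -0.11). In the cluster led by Sv2c, Smpd3 and Rorb, where only 19 TNF+ cells stood against 666 TNF- cells, Adamts5 was at 748 CPM (interval 732 to 764) and 653 CPM (interval 534 to 791.5). Vcan was lower in the first pair of clusters (-1.26 and -0.76), and was at 382 and 389 CPM in the Sv2c cluster. Adamts15 had 366 UMIs (18.0 CPM) in TNF- cells of the Grm8 cluster and 0 in the 58 TNF+ cells. The upper counting limit of that log2 ratio was -0.93, so the counts do not fix a difference of 2-fold.

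**Figure D4:**
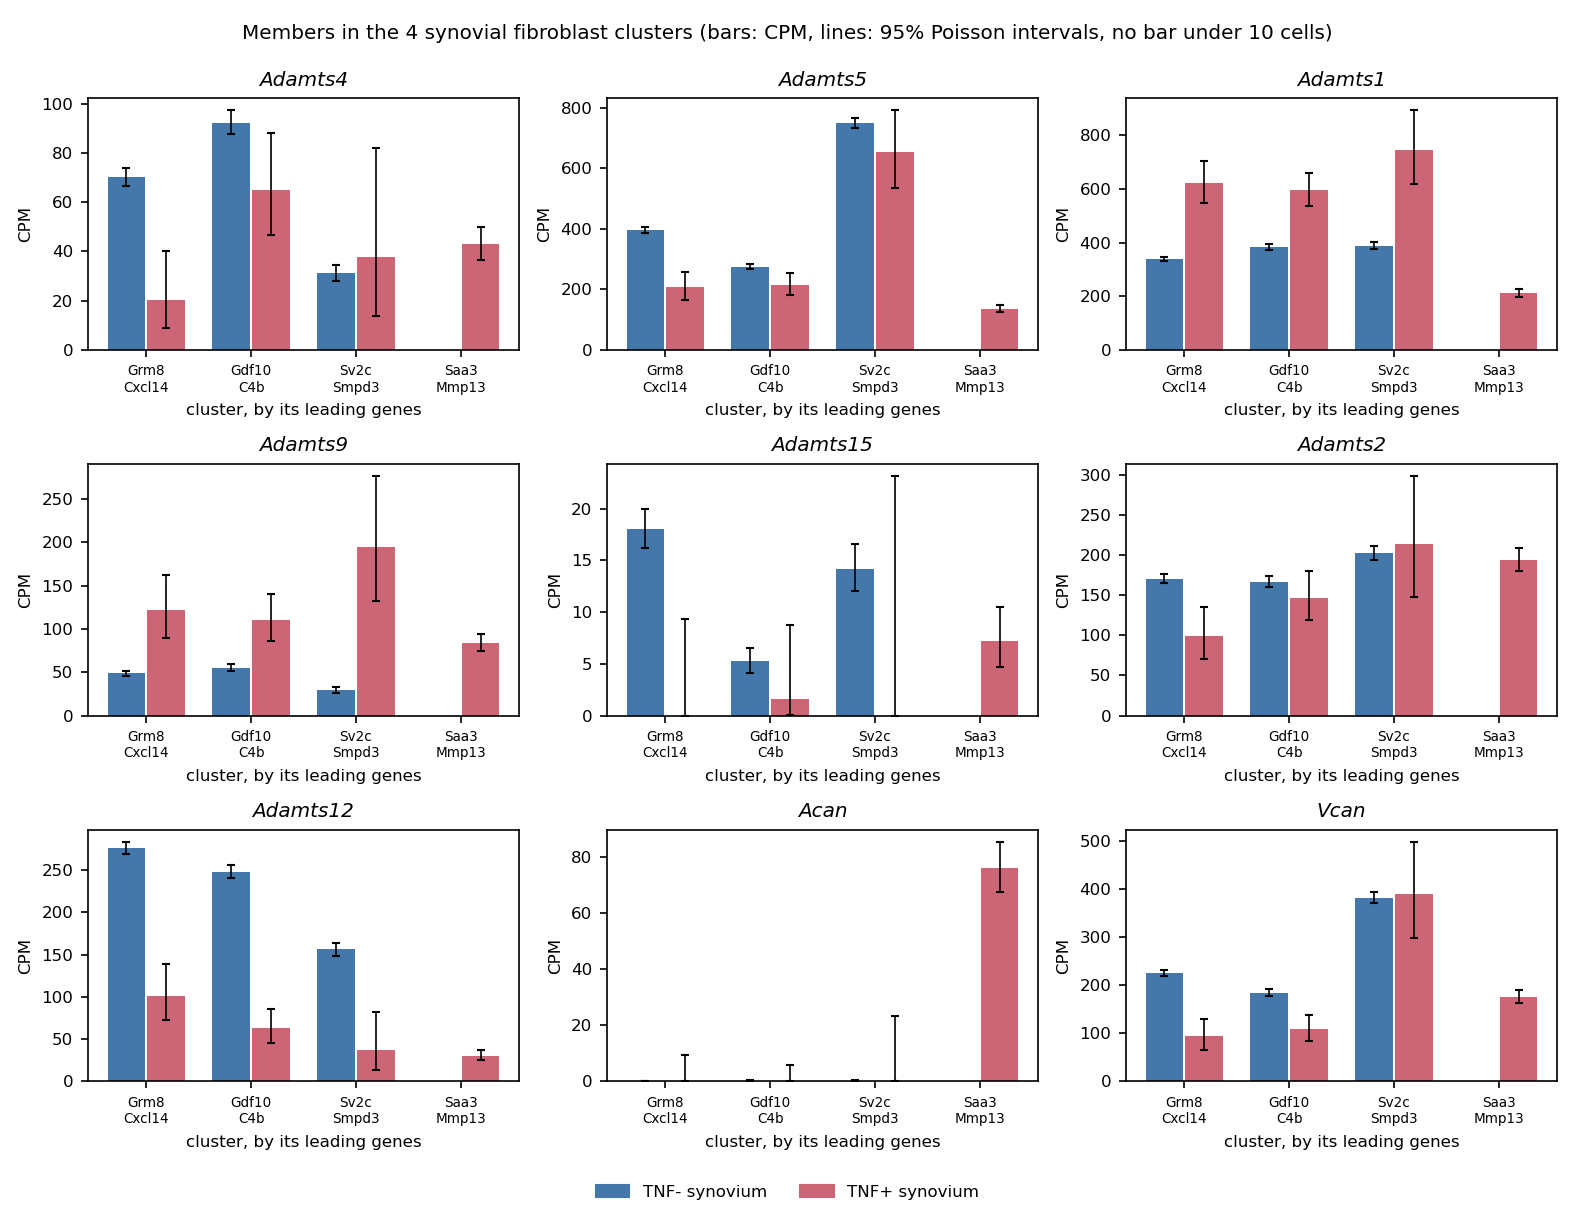
Level (CPM, linear axis from 0, with 95% counting intervals) of each gene in the 4 synovial fibroblast-like clusters for TNF- and TNF+ cells; bars from fewer than 10 cells are not drawn. Adamts1 is higher in TNF+ in the Grm8 cluster (340.0 and 623 CPM) and the Gdf10 cluster (383.5 and 596 CPM), and Acan stands at 75.95 CPM in the Saa3 Mmp13 cluster.

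Mural-like cells of the synovium had the highest Adamts4 level of any named cell type in the series. It was 542 CPM in 293 TNF- cells (interval 509.5 to 575) and 1221 CPM in 126 TNF+ cells (interval 1149 to 1297), a log2 ratio of 1.17 (interval 1.05 to 1.30). Thinned to 1000 UMIs, 27.3% of TNF- and 45.0% of TNF+ mural-like cells had an Adamts4 UMI (52.2% and 69.8% before thinning). Adamts1 (893 and 1381 CPM, 0.63) and Adamts9 (736 and 1094 CPM, 0.57) were higher within 2-fold. Adamts2 was higher on low counts (23.5 and 94.99 CPM, 46 and 83 UMIs, 2.01, interval 1.48 to 2.57). On the other side Adamts12 was lower (284 to 46.9 CPM, -2.60, interval -3.09 to -2.14), as was Adamts15 (35.3 to 9.16 CPM, 69 and 8 UMIs, -1.95). Thus 2 of 7 members compared were 2-fold or more higher and 2 lower, against 5.1% and 21.4% of all genes compared there. Adamts5 was at 35.3 and 61.8 CPM (0.81), with the opposite sign without the filter (-0.25) and at clustering resolution 1.2 (-0.04). Vcan, not compared with the filter, was lower without it (106 and 7 UMIs, -2.70), which gave 2 higher and 3 lower of 8, against 4.64% and 20.2%.

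The mural-like cells were made up of different cells in the libraries. Smooth-muscle-marked cells led by Pln and Myh11 were 59 of the TNF- and 87 of the TNF+ cells, and cells with Abcc9 and Kcnj8, which are pericyte genes, among their leading genes were 234 and 39. Within the Pln cluster Adamts4 was at 725 and 1438 CPM (0.99, interval 0.83 to 1.15) and Adamts9 at 687 and 1258 CPM (0.87), while Adamts1 was level (1616 and 1625 CPM, 0.01, interval -0.11 to 0.13). In the Abcc9 cluster, with 39 TNF+ cells, Adamts4 had 448 and 380 CPM, Adamts9 at 760.2 and 458 CPM and Adamts12 at 425 and 224 CPM. Adamts12 had only 4 and 1 UMIs in the Pln cluster, so its lower value over all mural-like cells stood beside fewer Abcc9 cells.

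Endothelial-like cells of the synovium had Adamts1 and Adamts9, both lower in TNF+ within 2-fold. Adamts1 was at 807 and 542 CPM (log2 ratio -0.57, interval -0.67 to -0.48) and Adamts9 at 902 and 615 CPM (-0.55, interval -0.64 to -0.47). TNF+ endothelial-like cells were the deeper ones (median 6709.5 against 4289 UMIs), and as UMIs per cell both ratios had the opposite sign (0.18 and 0.20). Adamts4 was at 74.7 and 62.5 CPM, a difference within its interval (-0.26, -0.54 to 0.03). Adamts5 (55.8 to 22.6 CPM, -1.31) and Adamts2 (35 and 7 UMIs, -2.36) were 2-fold or more lower, 2 of 7 members against 9.76% of genes, and 0 were higher against 7.25%. The 27 fibroblast markers moved with this pair, summing to 2188 CPM in TNF- and 641 CPM in TNF+ endothelial-like cells, and the part of fibroblast RNA was not tested. Adamts2 was at 11.8 and 2.29 CPM, close to the T cell-like background. Without the cell filter Adamts12 (76 and 28 UMIs, -1.92) and Vcan (104 and 31 UMIs, -2.22) also passed 2-fold lower, which gave 4 of 7 lower and 0 higher against 10.6% and 8.84% of genes.

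A pair of vascular clusters that stayed unnamed, because other genes led them, carried these proteases as well. The first, led by Cytl1, Gkn3 and Gja5, passed 16 endothelial markers and held 79 TNF- and 156 TNF+ cells. There Adamts1 was at 1088 and 1385 CPM (0.35, interval 0.21 to 0.49), Adamts9 at 434 and 700.2 CPM (0.69) and Adamts4 at 18.7 and 155 CPM (9 and 207 UMIs, 3.06, interval 2.10 to 4.20). The second, led by Rgs5, Gabrr1 and Gm28055, was nearly all TNF+ (49 of 50 cells), with Adamts1 at 797.5 CPM, Adamts9 at 846 CPM and Adamts4 at 160 CPM. The direction for Adamts1 and Adamts9 was not the same in all vascular clusters of the joint. It was lower in the capillary-marked Gm12002 Slc1a1 Aqp1 cluster (852 to 577 CPM and 980 to 660.2 CPM) and higher in the Cytl1 cluster. In the Rflnb C1qtnf9 Fabp4 cluster, also endothelial-like (65 and 78 cells, median 972 UMIs), Adamts9 was higher in TNF+ (240 to 436 CPM, 0.86, interval 0.29 to 1.44), and Adamts1 was at 382 and 276 CPM with an interval that held 0 (-0.47, -1.07 to 0.11). The difference between these clusters was not tested.

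**Figure D5:**
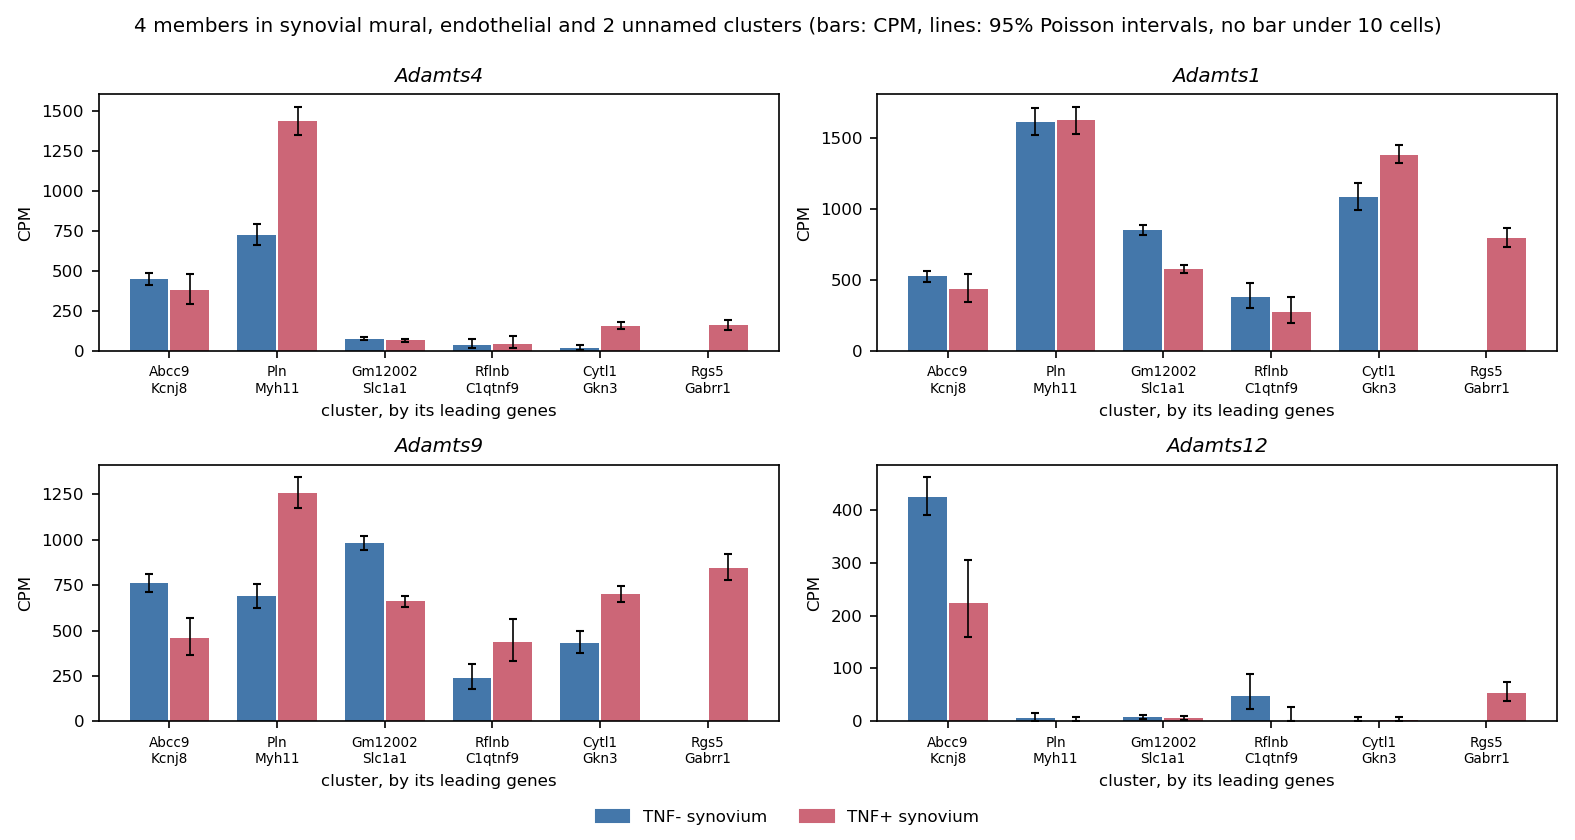
Level (CPM, linear axis from 0, with 95% counting intervals) of Adamts4, Adamts1, Adamts9 and Adamts12 in the mural-like, endothelial-like and unnamed vascular clusters of the synovium for TNF- and TNF+ cells; bars from fewer than 10 cells are not drawn. Adamts4 is at 725 and 1438 CPM in the Pln cluster, and Adamts1 is lower in TNF+ in the Gm12002 cluster (852 and 577 CPM) but higher in the Cytl1 cluster (1088 and 1385 CPM).

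Other cells of the joint carried single members. Vcan in macrophage- or monocyte-like cells as a whole was level per UMI (114.0 and 112.5 CPM, -0.02, interval -0.19 to 0.16) while their UMIs of it went from 325 to 1707. A cluster led by Trem2, Cxcl2 and St18, with 10 TNF- and 874 TNF+ cells, held 1390 of these, 51.2% of all Vcan UMIs in TNF+ synovium, at 104 CPM. The highest Vcan level was in the monocyte-marked cluster that Chil3, Gm9733 and Plac8 led, at 348.5 CPM in 51 TNF- cells (interval 309 to 391) and 1067 CPM in 20 TNF+ cells (interval 945 to 1200.3). Vcan was also higher in TNF+ in the cluster led by Cd300e, Treml4 and Adgre4 (87 and 188 cells), at 5.29 and 29.5 CPM (5 and 39 UMIs, 2.48, interval 1.13 to 4.18), while the cluster led by Ccl12, Ccl24 and Cbr2 had 13 UMIs in 74 TNF- cells and 0 in 27 TNF+ cells. The level value over the whole class therefore stood beside a different mix of clusters in each library. Of the other members compared in these cells, Adamts4, Adamts1 and Adamts9 were at or near the highest T cell-like level of any member (at most 15.4 CPM). In TNF- they were at 2.455, 15.4 and 12.6 CPM, against 2.70, 8.10 and 3.37 CPM of the same genes in T cell-like cells. Each of them was past 2-fold lower, though the Adamts4 interval held 0 (7 and 14 UMIs, -1.41, -2.82 to 0.14). That made 3 of 4 members lower and 0 higher, where 19.5% and 9.2% of genes were, and without the filter 6 of 7 were lower and 0 higher, against 23.2% and 7.33%. Tenocyte-like cells were lower for Adamts12 (38.1 to 6.68 CPM, 157 and 6 UMIs, -2.51, interval -3.98 to -1.355) and Adamts4 (39.0 to 5.57 CPM, 161 and 5 UMIs, -2.81, interval -4.45 to -1.56). Both TNF+ levels lay under the highest T cell-like background of that library (8.19 CPM, for Adamts9). T cell-like cells there had 0 UMIs of Adamts12 and Adamts4 themselves. They were close for Adamts5 (95.7 and 93.6 CPM, -0.03, interval -0.39 to 0.31) in tenocyte-like cells of both groups.

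Schwann-like cells, the glia of peripheral nerve, were lower in TNF+ for Adamts12 (221 to 25.3 CPM, -3.13), Vcan (137 to 33.4 CPM, -2.04) and Adamts1 (372 to 122 CPM, -1.60). Different clusters held them: 55 of 70 TNF- cells lay in a cluster led by Gm20754, Gfra3 and Grik2, and 215 of 235 TNF+ cells in another. Adamts12 thus had lower values in TNF+ fibroblast-like, mural-like, tenocyte-like and Schwann-like cells. In endothelial-like cells it was at 11.1 and 5.89 CPM (-0.91), near the T cell-like background, its interval held 0 in the Gm12002 cluster (-1.44 to 0.60), and the sign turned at resolution 0.4 and with the unnamed vascular clusters added (0.27 in both).

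The lung used the same genes differently. In TNF- lung, endothelial-like cells held 63.1% of Adamts1 and 70.4% of Adamts9 UMIs. Fibroblast-like cells held 79.4% of Adamts2, 75.3% of Adamts15 and 62.1% of Adamts5. Adamts12 was divided between fibroblast-like (57.7%) and mural-like (36.7%) cells, and Vcan between fibroblast-like (42.8%) and macrophage- or monocyte-like (42.7%) cells. In TNF+ lung, endothelial-like cells held 65.9% of Adamts1, 73.6% of Adamts9 and 42.0% of Adamts12, macrophage- or monocyte-like cells held 76.0% of Vcan, and the fibroblast-like share of Adamts2 was 31.8%. The T cell-like background in lung was at most 2.49 CPM (Adamts2). This Adamts2 was uneven, at 9.20 and 3.13 CPM in the T cell-like cluster led by Il23r, Ccr4 and Ctla4. In the one led by Dapl1, Lef1 and Gm14085 it was at 0.985 and 0.5075 CPM, so for Adamts2 the value may not be free RNA.

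Set beside the synovium, TNF- lung fibroblast-like cells had less of both classic aggrecanases. The log2 ratio of lung over synovium was -4.96 for Adamts4 (2.18 against 67.9 CPM) and -3.04 for Adamts5 (53.6 against 440.5 CPM). They had more Adamts15 (92.9 against 13.01 CPM, 2.84) and Adamts9 (134 against 46.4 CPM, 1.53). Mural-like cells differed most for Adamts4, with 12.9 CPM in lung against 542 CPM in synovium, both TNF- (-5.39, interval -6.40 to -4.55). The tissues were digested with different enzymes, and the part of digestion in these differences was not tested.

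Within lung fibroblast-like cells most members compared were lower in TNF+. Adamts15 was at 92.9 and 15.04 CPM (298 and 6 UMIs, -2.63, interval -4.08 to -1.49; -1.46 without the filter) and Adamts1 at 202 and 70.2 CPM (649 and 28 UMIs, -1.53, interval -2.13 to -0.98). Adamts9 (134 to 62.7 CPM, -1.10) and Adamts12 (116 to 55.1 CPM, -1.07, but -0.81 without the filter) completed the 4 of 7 members lower by 2-fold or more, against 10.7% of genes, with 0 higher against 10.4%. Adamts2 was lower within 2-fold (274 to 155 CPM, -0.82, interval -1.21 to -0.45). Adamts5 was level (53.6 and 55.1 CPM, 0.04, interval -0.67 to 0.68), and was higher without the filter (0.62, interval 0.30 to 0.93). Vcan was higher (87.6 to 128 CPM, 0.54, interval 0.08 to 0.98), but not without the filter (-0.04). Adamts4 had too few UMIs to be compared (7 and 4), but without the filter it had 17 and 9 UMIs at 2.42 and 7.92 CPM (1.71, interval 0.36 to 2.96). The count without the filter was thus 1 higher (Adamts4, against 8.53% of genes) and 3 lower of 8 (Adamts1, Adamts9 at -1.76 and Adamts15, against 8.83%). Few UMIs stood behind the TNF+ values, from 6 to 62 per member compared.

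The lung fibroblast-like cells were of different clusters by genotype. A shallow cluster led by Inmt, Mfap4 and Cxcl14, with a median of 1017 UMIs, held 91 of the 117 TNF+ and 218 of the 460 TNF- cells. Within it Adamts9 was lower (25 and 2 UMIs, -2.11, interval -5.23 to -0.11), and Adamts12 had 0 UMIs in TNF- and 4 in TNF+ cells, against the direction of the sum. The 27 fibroblast markers summed to 15592 CPM in TNF- and 10939 CPM in TNF+ lung fibroblast-like cells, while the 24 macrophage or monocyte markers summed to 450 and 3875 CPM and the 18 B or plasma cell markers to 358 and 2680 CPM. The part of RNA from other cells in these values was not tested.

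Lung mural-like cells were lower in TNF+ for 5 of 7 members, against 13.7% of genes (0 higher, against 7.03%). Their Adamts12 was at 278 and 110.1 CPM (237 and 20 UMIs, -1.34, interval -2.07 to -0.67) and their Adamts2 at 135 and 44.0 CPM (115 and 8 UMIs, -1.61). The others were Adamts15 (-1.90), Adamts5 (-1.79) and Vcan (-1.33), with 4 to 5 UMIs each in TNF+. Adamts1 was within its interval (143 and 127 CPM, -0.18). Without the filter 3 of 8 were lower and 0 higher, against 12.4% and 6.02% of genes: Adamts15 (-2.20), Vcan (-2.06) and Adamts9 (-1.76). Adamts12 (-0.68), Adamts2 (-0.97) and Adamts5 (-0.90) were then within 2-fold.

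These mural-like cells too lay in different clusters. A smooth-muscle-marked cluster led by Gpc6, Adcy8 and Ctnna3 held 85 of the 106 TNF- and 9 of the 95 TNF+ cells, and a cluster led by Tafa1, Cox4i2 and Clstn2 held 21 and 86. Their median depths were 7120.5 UMIs in TNF- and 641 UMIs in TNF+ cells. The 19 mural markers summed to 27606 and 15631 CPM, the 24 macrophage or monocyte markers to 215 and 4964 CPM and the 18 B or plasma cell markers to 321 and 5955 CPM. Their part in the lower values was not tested.

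Lung endothelial-like cells, by contrast, were not lower for the 2 members they mainly hold, Adamts1 and Adamts9. Adamts1 was at 120.3 and 138 CPM, within its interval (0.19, -0.02 to 0.40), and Adamts9 was higher (109 to 183 CPM, 0.75, interval 0.56 to 0.94). Adamts12 was at 1.94 and 27.9 CPM (27 and 42 UMIs, 3.85, interval 3.12 to 4.60). Of those 42, 41 lay in a cluster led by Gm46565, Prnd and Far2, with 87 TNF+ and 4 TNF- cells, at 48.3 CPM (interval 34.7 to 65.5). Without the filter Adamts12 was at 2.76 and 25.6 CPM (3.22). Adamts5 (34 and 9 UMIs, 1.29) and Vcan (20 and 9 UMIs, 2.06) were past 2-fold at levels under 6 CPM. That made 3 of 6 members higher and 0 lower, against 10.1% and 8.8% of genes. Without the filter it was 1 higher (Adamts12) and 2 lower of 8, against 9.21% and 10.8%: Vcan was at 0.97, Adamts5 had the opposite sign (-0.55), and Adamts15 (40 and 2 UMIs, -2.03) and Adamts2 (60 and 4 UMIs, -1.62) were lower.

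Clusters parted by genotype here as well. The cluster led by Samd12, Hmcn1 and Bmp6 held 1414 TNF- and 6 TNF+ endothelial-like cells, and one led by Unc45b, Gpr182 and Gpihbp1 held 305 and 4. Most TNF+ cells (260, against 19 TNF-) lay in a shallow cluster led by Lars2, Col4a2 and Gm42418, which passed 5 endothelial markers at a median of 650 UMIs. The 23 endothelial markers summed to 24421 CPM in TNF- and 12570 CPM in TNF+ cells, the macrophage or monocyte markers to 1253 and 2792 CPM and the B or plasma cell markers to 343 and 2618 CPM. Genotype and cluster cannot be told apart in these values.

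In lung macrophage- or monocyte-like cells Vcan was lower per UMI (52.3 to 7.18 CPM, -2.86, interval -3.11 to -2.62) on similar counts (280 and 292 UMIs), since these cells numbered 525 in TNF- and 4348 in TNF+. In the monocyte-marked cluster led by F13a1, AI839979 and Ccr2 (131 and 428 cells), where most of it lay, it was at 135 and 35.4 CPM (-1.93, interval -2.19 to -1.67). Adamts1, at most 2.06 CPM, was the other of 2 members of 4 past 2-fold lower (11.1% of genes), with 0 higher (5.33%). Without the filter the same pair was lower (13.6% of genes) and Adamts2 was higher (5.44%).

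Adamts2 had a second source in lung. An unnamed cluster led by Kcnip4, Htr2c and Kcnn3, which passed 11 macrophage markers, had 38.3 CPM in 103 TNF- and 55.8 CPM in 70 TNF+ cells (0.54, interval -0.02 to 1.10). It gave 27.2% of the Adamts2 UMIs of TNF+ lung. Without the filter, macrophage- or monocyte-like cells of TNF+ lung held 1187 Adamts2 UMIs and those of TNF- lung 43 (14.0 and 5.60 CPM, 1.32, interval 0.89 to 1.80), and 1119 of the 1187 lay in cells that the filter had dropped, most of them for more than 5000 genes. In TNF- lung the filter also dropped 323 cells of unnamed clusters, 310 of them for more than 5000 genes, with 411 Adamts2 UMIs (12 cells and 21 UMIs in TNF+), and 179 fibroblast-like cells with 1830.

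The genes whose levels ran most like each member's, over 44 points (a cell type in a library with at least 50 cells each), were these, by Pearson's r of log2(CPM + 1). The points share libraries and depth, so r is a description. Adamts2 ran with the fibrillar and microfibrillar collagens Col3a1 (0.946), Col6a2 and Col6a3 (both 0.933), and Adamts5 with Col5a1 (0.946), Rian and Entpd2. Adamts1 ran with Osmr (0.958), the oncostatin M receptor, Lamb2 (0.954), a basement membrane laminin, and Grb10. Adamts9 ran with Adamts1 (0.93), Lamb2 and Timp3. Adamts4 ran with Foxc1 (0.887), a transcription factor of mural and mesenchymal cells, Cacng7 and Pcdh19. Adamts15 was nearest to Mark1 (0.904), Wasf3 and Ppp1r14a, Adamts12 to Plac9b (0.93), Kirrel and A830082K12Rik, and Vcan to Col14a1 (0.832), Abca6 and C4b. Acan, with 321 UMIs in all, was too sparse for this.

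Adamts1 was the gene most like Adamts9 in level, though Adamts9 was not among the 3 genes most like Adamts1. The 300 bases around the starts of both (250 before, 50 after, RefSeq on GRCm38.p6) are shown with matches to TATAAA and GGGCGG on either strand in capitals. The first is chr16:85803064-85803363 and the second chr6:92943485-92943784, both on the minus strand.
Adamts1: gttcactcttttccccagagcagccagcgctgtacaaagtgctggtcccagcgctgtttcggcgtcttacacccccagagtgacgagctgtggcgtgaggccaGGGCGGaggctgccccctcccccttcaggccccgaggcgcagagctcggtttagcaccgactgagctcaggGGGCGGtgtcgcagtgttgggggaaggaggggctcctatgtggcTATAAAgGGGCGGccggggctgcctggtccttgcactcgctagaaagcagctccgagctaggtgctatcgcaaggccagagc
Adamts9: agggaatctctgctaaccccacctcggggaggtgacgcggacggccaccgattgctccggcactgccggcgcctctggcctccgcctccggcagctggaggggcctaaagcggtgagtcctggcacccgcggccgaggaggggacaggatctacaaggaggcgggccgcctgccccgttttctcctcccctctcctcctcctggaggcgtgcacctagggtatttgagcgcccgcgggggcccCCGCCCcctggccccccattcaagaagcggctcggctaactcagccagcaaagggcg

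The Adamts1 window holds 1 TATAAA, which 13.6% of 32851 mouse promoter windows of this length hold, and 3 GGGCGG. The Adamts9 window holds 1 GGGCGG and no TATAAA. Of all windows, 35.7% hold a GGGCGG. Of the letters also searched, TGANTCA (AP-1) and TGACGTCA (CRE) were in neither window. Windows were given for 6 of the 9 members, and a match is a run of letters, not a site.

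The rest of the family, its inhibitors and its partners give the setting. Of 12 other ADAMTS proteases, 9 could be compared in synovial fibroblast-like cells. Adamts7, a vascular and cartilage matrix protease, was higher (82 and 103 UMIs, 1.78 to 20.9 CPM, 3.55), as was Adamts17 (1.02). Adamts6 (-1.41), Adamts10 (-1.11), Adamts16 (-1.07), Adamts19 and Adamts20 were 2-fold or more lower, the last on 2 TNF+ UMIs (the median of the 9 was -1.07). That was 2 higher and 5 lower of 9, beside 8.85% and 23.7% of all genes compared in these cells, the shares that stand beside the next counts too. All 6 ADAMTS-like glycoproteins, which lack the protease part, were compared, and 5 were lower, among them Adamtsl1 (399 to 78.8 CPM, -2.34) and Adamtsl3 (147 to 40.9 CPM, -1.85), with a median of -1.5.

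Inhibitors, activators and clearance genes had values in both directions. Timp3, the main inhibitor of aggrecanases, was lower within 2-fold in synovial fibroblast-like cells (533 to 276 CPM, -0.95), while Timp1 was higher (12.96 to 728 CPM, 5.81, interval 5.69 to 5.94). Sdc4, a syndecan that binds ADAMTS enzymes at the cell surface, was higher (114 to 273 CPM, 1.27), Pcsk6, a convertase that activates them, was lower (292 to 50.2 CPM, -2.54), and Lrp1, their clearance receptor, was close (749 and 638 CPM, -0.23). That was 2 higher and 1 lower of 9, with a median of -0.10. Of the hyaluronan matrix genes, 3 of 7 compared were higher and 0 lower: Hapln1 (0.674 to 7.09 CPM, 3.39), the hyaluronan receptor Cd44 (256 to 856 CPM, 1.74) and Tnfaip6 (982 to 2035 CPM, 1.05), which loads proteins onto hyaluronan.

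In lung fibroblast-like cells, Timp3 was lower (1474 to 421 CPM, -1.81, interval -2.04 to -1.58) and Timp1 was higher (50.8 to 105 CPM, 1.05). Pcsk6 had 50 UMIs in TNF- and 0 in TNF+, out of 3206917 and 398954 UMIs of all genes. Its call as lower rests on the floor of 3 UMIs. That made 1 higher and 2 lower of 8, where 10.4% and 10.7% of all genes compared in these cells were. Of 6 other ADAMTS proteases compared, 3 were lower (Adamts8 at -2.02, Adamts10 at -1.13 and Adamts17 at -1.08). Adamtsl1 was higher there (79.2 to 414 CPM, 2.39), opposite to its value in synovial fibroblast-like cells. Adamtsl3 was also higher (1.12), and Adamtsl2 (-1.02) and Adamtsl4 (-1.44) were lower, of 5 compared. Cd44 was higher (139 to 393.5 CPM, 1.504), the only one of 3 hyaluronan matrix genes compared that passed 2-fold.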

How the data were processed

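Per the labels and the study's methods, cells from pooled tissue were captured with a 10x Genomics Chromium single-cell 3′ kit. The authors deposited filtered matrices of UMI counts per gene and barcode, whole numbers with no normalization. The submitters' processing notes name Cell Ranger 7.0.1 and mm10 (GRCm38), and that version counts intronic reads by default, which can raise long genes such as Adamts12 (284.4 kb) and Adamts2 (205.5 kb). The methods give a captured cell number per condition, and by barcodes TNF+ synovium falls below it and both lung libraries lie above it.

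Following the methods, barcodes with 200 to 5000 genes and at most 20% mitochondrial UMIs were kept. Counts were scaled to 10000 UMIs per cell and logged, and each tissue was clustered over both of its libraries (2000 variable genes, 30 components, 20 neighbours, Leiden resolution 0.8; scanpy 1.11.5, leidenalg 0.10.2, Python 3.11.15). Harmony and the study's cell names were not used here, so cell names were rebuilt and may differ from the study's. A cluster was named "-like" when at least 5 markers of a fixed list for 1 of 21 cell types were 2-fold higher than in the other cells of its tissue and found in at least 10% of its cells, and no other class led its top 10 genes. Doublets were kept, and removed by Scrublet score in an alternative.

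UMIs were summed by cell type and library. Levels are CPM with exact Poisson intervals, shares have Clopper-Pearson intervals, and ratios have conditional binomial intervals, all at 95% and for counting error only. With 1 library per group no p was computed. A ratio was compared when a gene had at least 20 UMIs over both libraries and each held at least 50 cells of the type, "past 2-fold" is a rule of size, and a ratio against 0 used a floor of 3 UMIs. Shares of cells with a UMI were taken after thinning each cell to 1000 UMIs. Ratio intervals were tried only on simulated Poisson counts, the model they rest on. UMIs clumped in few cells, as for Acan, were not simulated. Named genes are the 9 members and those of 4 context lists past 2-fold in fibroblast-like cells. Also named are the 3 genes most alike for each member with at least 500 UMIs, and 3 leading genes per cluster. Timp3, Lrp1, Col2a1, Ibsp, Sp7, Phex, Sox9, Col11a2, Chad, Col9a3, Cnmd, Cnn1 and Oxtr were named after their values were seen. Members and lists were chosen with earlier results of these data known. Gene positions and zinc sites come from GENCODE on GRCm38.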

Additional observations from a re-analysis of the deposited data

Results flagged for a closer look

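Differences between the tissues were flagged where the TNF+ over TNF- ratios had opposite signs in synovium and lung with intervals that both left out 0. With 1 library per group the differences themselves were not tested. Over all cells, the log2 ratio of Adamts9 was 0.65 in synovium and -3.17 in lung. In fibroblast-like cells Adamts9 was at 1.02 and -1.10, and Vcan at -0.57 and 0.54. In mural-like cells Adamts5 was at 0.81 and -1.79, and Adamts2 at 2.01 and -1.61. In endothelial-like cells Adamts5 was at -1.31 and 1.29, Adamts9 at -0.55 and 0.75, and Adamts12 at -0.91 and 3.85. Without the cell filter 4 of these 8 contrasts no longer had opposite signs with intervals that both left out 0: Adamts9 in synovial fibroblast-like cells was 0.10 with an interval that held 0, Vcan in lung fibroblast-like cells -0.04, Adamts5 in synovial mural-like cells -0.25 and Adamts5 in lung endothelial-like cells -0.55.

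Signal outside the named cell types was flagged where it passed 20% of a gene's UMIs. Unnamed clusters held 31.1% of Adamts1 and 30.1% of Adamts9 UMIs in TNF+ synovium, and 27.2% of Adamts2 UMIs in TNF+ lung.

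Barcodes that the filter left out were flagged where they held over 50% of a gene's UMIs, and more than their share of all genes. In TNF+ synovium these were Adamts5 (54.8%), Adamts15 (57.8%) and Acan (66.1%), against 31.8% for all genes. In TNF- lung they were Adamts5 (69.3%), Adamts15 (53.4%), Adamts2 (68.8%) and Vcan (55.5%), against 44.0%. In TNF+ lung they were Adamts5 (73.7%), Adamts1 (70.6%), Adamts9 (73.6%), Adamts15 (73.8%), Adamts2 (87.9%) and Adamts12 (61.1%), against 45.9%. In TNF- synovium, where 15.7% of all UMIs were left out, no member passed 50%.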

How the results depend on the processing

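Of 105 recomputed counts of members past 2-fold, 90 stayed within 1.5 times the value reported. Of 566 recomputed log2 ratios, 162 moved beyond their interval, and 11 whose reported interval left out 0 turned sign. Ratios whose interval held 0 are not among these 11, though some changed sign too. An example is Adamts2 in lung macrophage- or monocyte-like cells (-0.42, and 1.32 without the filter). Of 180 shares of UMIs 75 moved beyond their interval, and the cause was not tested. Of 108 shares of cells thinned to 500 or 2000 UMIs, 86 moved, since fewer or more UMIs were kept; Adamts5 in synovial fibroblast-like cells was then 18.5% and 6.02% or 47.7% and 20.1%, Adamts12 10.2% and 2.88% or 32.9% and 7.93%, and Adamts4 in mural-like cells 16.4% and 33.3% or 39.8% and 61.9%, each in the direction reported. In synovial fibroblast-like cells the count was 5, and 3 without the Saa3 Mmp13 cluster, where Adamts1 turned to 0.77. In synovial endothelial-like cells it was 2, against 1 with each cell weighted equally, as UMIs per cell, with at least 100 UMIs or with doublets removed, and 4 without the filter on cells or with each library clustered by itself. As UMIs per cell Adamts1 and Adamts9 turned to 0.18 and 0.20 there, and Adamts12 to 0.27 at resolution 0.4 and with the unnamed clusters of endothelial markers. In synovial macrophage- or monocyte-like cells it was 3, against 6 with at least 5 UMIs or no filter and 0 with at least 100 UMIs. In lung, at least 100 UMIs gave 0 of 3 in endothelial-like, 2 of 5 in mural-like and 1 of 2 in macrophage- or monocyte-like cells, and mural-like cells gave 3 without the filter or with each library by itself. Adamts5 in synovial mural-like cells turned to -0.25 without the filter and -0.04 at resolution 1.2, and in lung endothelial-like cells to -0.55 without the filter. Vcan in lung fibroblast-like cells turned to -0.07 with each cell weighted equally, -0.49 as UMIs per cell and -0.04 without the filter. Median-of-ratios scaling moved all ratios of a comparison together, by 0.29 over all lung cells, 0.23 in synovial macrophage- or monocyte-like cells (Vcan then 0.21), 0.15 in synovial fibroblast-like cells and at most 0.1 elsewhere.

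The Saa3 Mmp13 and unnamed-cluster settings were added after seeing the data. Leaving out clusters over 90% from 1 library left no synovial fibroblast-like cells and so no value. With 1 library per group no replicate could be left out. No paired analysis was possible because each group holds 1 library. Shallow TNF+ lung stromal cells limit what can be seen there: 6 to 62 UMIs stand behind each fibroblast-like value compared.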

Other observations

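Adamts1 also had a source in epithelial-like cells of the synovial library. In the TNF+ synovial library, 36 cells of a cluster led by the basal keratins Krt14, Krt17 and Krt5, with the contractile gene Cnn1 and the oxytocin receptor Oxtr also among its leading genes, had Adamts1 at 1450 CPM (501 UMIs in 34 cells, interval 1325 to 1582), 6.41% of the library's Adamts1 UMIs. Only 2 such cells were in the TNF- library, with 27 UMIs. In lung, epithelial-like cells had Adamts1 at 46.7 and 7.15 CPM in TNF- and TNF+ (165 and 7 UMIs, log2 ratio -2.71, interval -4.04 to -1.63) and Adamts9 at 40.5 and 23.5 CPM (-0.78, interval -1.49 to -0.14).

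Barcodes left out of TNF+ synovium were of other kinds too. Clustered without the filter, 64 of 110 osteoclast-like cells were ones that the filter had dropped, all 64 for more than 5000 genes. They held 11 Acan UMIs and 167 Vcan UMIs. The 4 dropped Schwann-like cells held 29 Acan UMIs, and the 637 dropped cells of unnamed clusters also held 29. Without the filter, tenocyte-like cells had 29 Acan UMIs in TNF+ and 1 in TNF- (log2 ratio 6.72, interval 4.13 to 12.07), and Vcan there was at 26.8 and 54.4 CPM (1.02, interval 0.51 to 1.52).

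In mural-like cells, where lung and synovium were compared within TNF- mice, Adamts12 was level (284 CPM in synovium, 278 CPM in lung, log2 ratio -0.03, interval -0.26 to 0.19), while Adamts2 (2.52) and Vcan (3.08) were higher in lung and Adamts9 (-4.49) was lower.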
